A study of Mus musculus with 12 samples.

Results

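The genes described here are transcription factors that pattern the nervous system and other ectoderm of the embryo. They were named as a list of 57 symbols, typical targets of the Polycomb system in other cell types, and every symbol that matched the gene table was kept however low its counts. In all, 55 of the 57 matched, out of 37991 gene identifiers in the table. Sox1 and Pou3f2 were not matched, and their expression is not analysed here. RNA was sequenced from primordial germ cells sorted from single mouse embryos at E13.5 (embryonic day). The 4 groups are female Ctrl (control, 3 embryos), female CKO (conditional knockout of Ezh2, 2 embryos), male Ctrl (4 embryos) and male CKO (3 embryos), all on a C57BL/6 background and all at the same age. The labels give the genotype as CKO or Ctrl alone. They name neither the Cre driver, the deleted exons, the litters nor the alleles that the controls carry, so how completely and when Ezh2 was lost is not stated.

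Primordial germ cells are the precursors of eggs and sperm. At this age male germ cells in the testis are leaving the cell cycle and female germ cells in the ovary are entering meiosis. Ezh2 is the catalytic subunit of Polycomb repressive complex 2 (PRC2), which methylates histone H3 around the CpG-rich promoters of developmental regulators and is known for keeping them silent outside their own lineage. The homeobox families (Lhx, Dlx, Irx, Gbx, Nkx and others), the Sox proteins, the paired box proteins and the basic helix-loop-helix (bHLH) proneural factors described here belong to the best known genes of this kind.

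Library totals ran from 26180685 to 35299206 counts, so that 1 CPM (the count scaled to library size, with factors by trimmed mean of M values) stood for 24.2 to 34.2 counts. Summed over 10 germ cell markers, the libraries reached 5800 to 6480 CPM in every group, with no marker at 0. Ezh2 transcripts read 154 ± 10.9 CPM (SD, n = 3) in female Ctrl, 95.6 ± 15.7 (n = 2) in female CKO, 122 ± 19.9 (n = 4) in male Ctrl and 84.4 ± 1.79 (n = 3) in male CKO. The log2 fold change of Ezh2 was -0.68 in females (adjusted p = 0.02, edgeR) and -0.53 in males (adjusted p = 0.0527). Since the deleted exons are not given, reads from the rest of the transcript may remain in this value. The labels say that the cells of each embryo were sorted separately, so each library is 1 embryo.

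Many of the factors had few or no counts in all 4 groups. Neurod2, Nkx6-1, Zic1 and Pou3f1 had 0 counts in all 12 libraries. A count of 0 over a group allows a mean of up to 0.032 CPM in female Ctrl, 0.0445 in female CKO, 0.0261 in male Ctrl and 0.0343 in male CKO (3 counts over the group, for counting error only, since amplified reads are not independent molecules). A further 16 factors had between 1 and 20 counts in the 12 libraries together. They include Pax2, Pax5 and Pax7 of the paired box family, the proneural factors Neurog1 and Neurog2, Six3 of the anterior forebrain, En1 of the midbrain and Nkx2-1 of the ventral forebrain. Neurod1, Olig2, Dlx5 and Irx2 had more counts than that but also fell below the count filter of the test, which left 31 factors tested and 24 untested.

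The count filter left out factors that were low in all groups, with Ezh2 deleted as well as present. The highest count of an untested factor in any library was 15, and 10 in any CKO library, and the highest mean of a CKO group among them was 0.207 CPM, for Dlx5 in females. The number of factors with at least 1 count was 37 to 41 in female Ctrl libraries, 36 to 39 in female CKO, 29 to 35 in male Ctrl and 28 to 34 in male CKO. Summed CPM over all matched factors was 103 to 141 in female Ctrl and 96.2 to 117 in female CKO. It was 31.8 to 53.9 in male Ctrl and 31.3 to 48.3 in male CKO. The ranges of CKO and Ctrl overlapped in each sex, and those of females and males did not. Mean CPM was higher in CKO for 21 of the 47 factors with a count in females and for 17 of 48 in males. Many of these have so few counts that single reads can set the direction. Among the 31 tested factors, the log2 fold change was above 0 for 14 in females and 11 in males. Over all tested genes the shares above 0 were 49.6% in females and 47.7% in males.

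**Figure D1:**
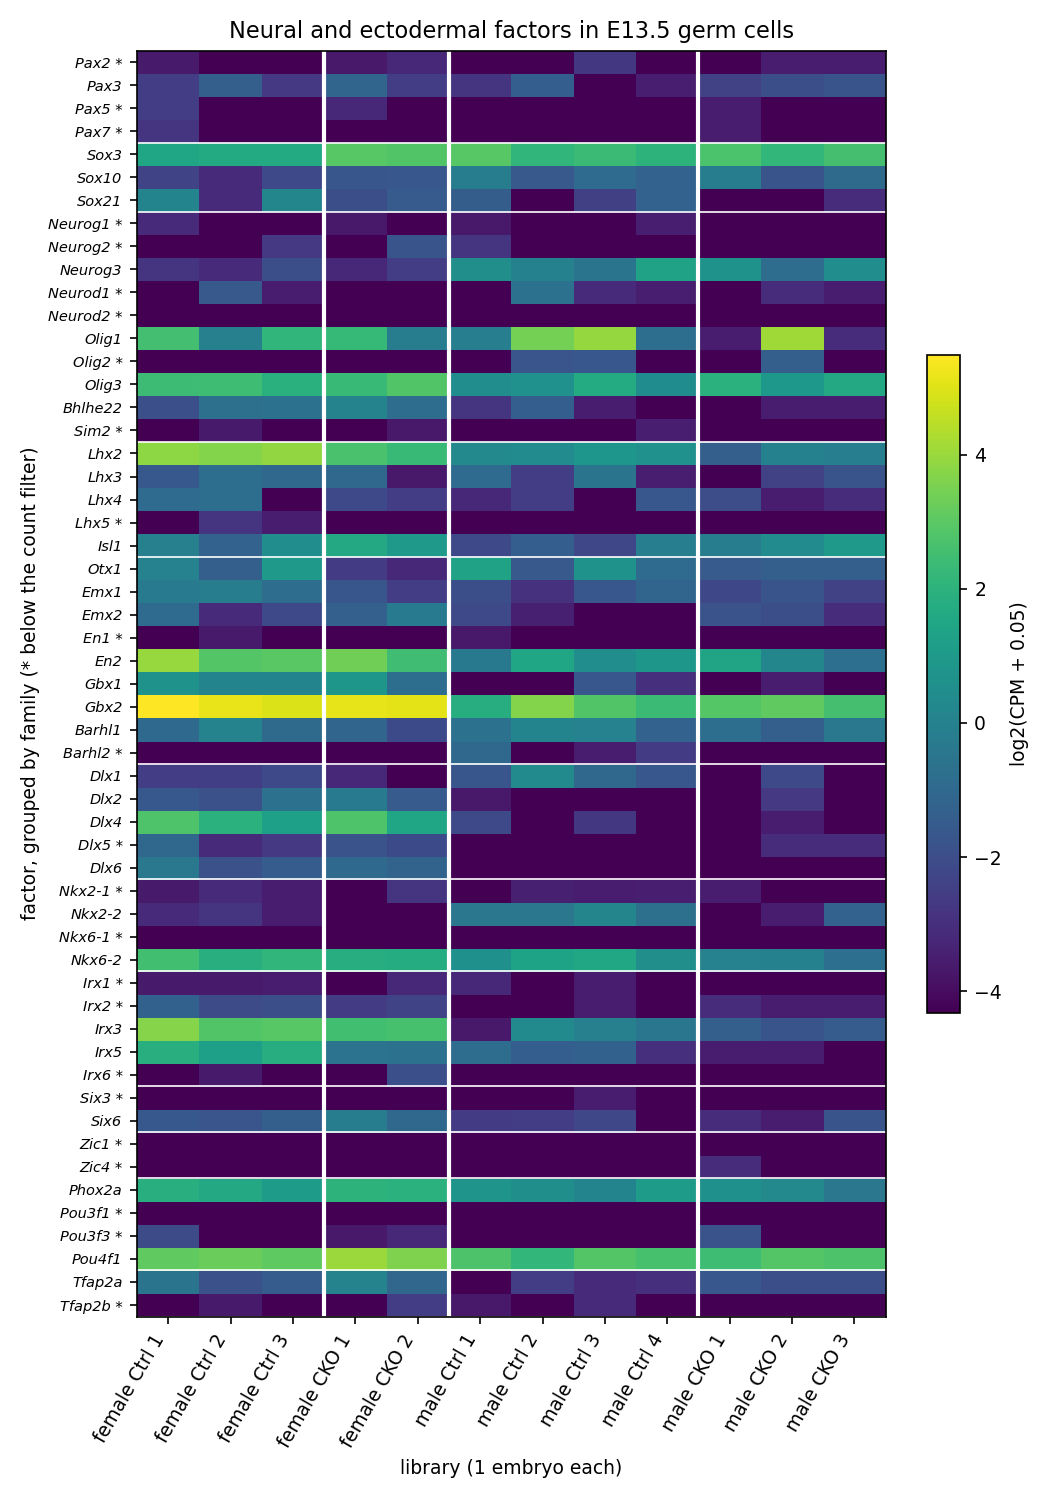
Level of the 55 matched factors in each library, as log2(CPM + 0.05), in rows grouped by gene family and columns grouped by sex and genotype, with an asterisk for the 24 factors below the count filter. Gbx2, Pou4f1, Lhx2, Olig3 and En2 are bright across the female libraries, most other rows are dark in every column, and the step between female and male columns is wider than that between Ctrl and CKO columns.

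Of the 55 factors, 16 reached a mean of 1 CPM in at least 1 group. Compared per length of transcript, Gbx2, a homeobox factor that sets the midbrain to hindbrain boundary, stood first in each group, at 17.2 ± 3.25 CPM per kb in female Ctrl, 15.8 ± 0.339 in female CKO, 3.26 ± 1.86 in male Ctrl and 3.36 ± 0.574 in male CKO. In female Ctrl the next were Irx3 (3.34 ± 1.17), Lhx2 (3.17 ± 0.273), En2 (2.92 ± 1.36) and Nkx6-2 (2.36 ± 0.583), and each of these overlapped its neighbour in that order. In male Ctrl, Gbx2 was followed by Olig1 (3.18 ± 3.41), Sox3 (2.56 ± 0.798) and Pou4f1 (1.31 ± 0.25). There Gbx2 overlapped Olig1 and Olig1 overlapped Sox3, while Sox3 and Pou4f1 did not overlap. At 75.4% in both female groups, the percentile of Gbx2 among all tested genes in CPM per kb was above the middle. In males Gbx2 was slightly below it, at 47.3% in Ctrl and 48.1% in CKO. The second factor in female Ctrl, Irx3, was at 47.4%.

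Promoter sequence was set beside the levels because PRC2 is known to act at CpG-rich promoters. RefSeq promoters on GRCm38.p6 matched 40 of the 57 symbols, Sox1 and Pou3f2 among them, with 46 start sites. In the 250 bases before the start, these held a median of 18.5 CpG dinucleotides (the letters CG, which read the same on both strands), against 6 in all 32851 promoters of the same length. Factors that passed the count filter had a median of 18 and those below it 19. These counts are a description of the windows only. The sequences of 5 factors are printed, with each CpG in capitals: Lhx2 and Nkx6-2, which fell in CKO cells, Isl1, which rose, Gbx2, the most abundant factor, and Olig3, which had the fewest CpG of all matched promoters together with Zic4. Lhx2 (chr2:38339031-38339280, + strand) holds 25 CpG, Nkx6-2 (chr7:139582798-139583047, - strand) 26, Isl1 (chr13:116309689-116309938, - strand) 33, Gbx2 (chr1:89931177-89931426, - strand) 18 and Olig3 (chr10:19356289-19356538, + strand) 4. At least as many CpG were found in 10.7% of all promoters for Lhx2, in 9.59% for Nkx6-2, in 4.03% for Isl1, in 21.7% for Gbx2 and in 62.2% for Olig3. The second start site of Lhx2 in that table holds 24.
Lhx2: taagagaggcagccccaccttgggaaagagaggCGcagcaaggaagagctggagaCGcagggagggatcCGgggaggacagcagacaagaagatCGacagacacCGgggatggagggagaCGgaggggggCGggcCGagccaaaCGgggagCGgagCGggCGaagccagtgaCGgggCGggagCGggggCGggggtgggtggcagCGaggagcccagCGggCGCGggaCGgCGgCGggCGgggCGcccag
Nkx6-2: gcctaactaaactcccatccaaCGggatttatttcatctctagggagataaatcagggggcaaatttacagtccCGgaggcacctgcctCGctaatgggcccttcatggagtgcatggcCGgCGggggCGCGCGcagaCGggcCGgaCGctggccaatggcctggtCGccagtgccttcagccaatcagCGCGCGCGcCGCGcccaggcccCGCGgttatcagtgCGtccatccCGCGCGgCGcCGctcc
Isl1: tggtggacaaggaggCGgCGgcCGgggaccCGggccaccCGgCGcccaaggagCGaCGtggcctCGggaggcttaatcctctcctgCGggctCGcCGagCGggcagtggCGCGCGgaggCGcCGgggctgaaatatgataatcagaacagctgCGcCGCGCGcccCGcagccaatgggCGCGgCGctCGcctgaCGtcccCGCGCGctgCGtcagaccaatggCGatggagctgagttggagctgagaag
Gbx2: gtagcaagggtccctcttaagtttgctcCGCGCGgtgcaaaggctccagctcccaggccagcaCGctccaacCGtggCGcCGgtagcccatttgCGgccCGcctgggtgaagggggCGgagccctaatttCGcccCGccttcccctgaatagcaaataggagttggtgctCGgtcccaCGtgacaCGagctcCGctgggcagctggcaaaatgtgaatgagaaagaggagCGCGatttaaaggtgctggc
Olig3: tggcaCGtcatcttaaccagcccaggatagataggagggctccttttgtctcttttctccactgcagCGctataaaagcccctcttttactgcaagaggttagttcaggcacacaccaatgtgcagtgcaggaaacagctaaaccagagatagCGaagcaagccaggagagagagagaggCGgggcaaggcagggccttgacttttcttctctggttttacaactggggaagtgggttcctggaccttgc

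In female CKO germ cells 3 factors changed: Irx5 and Lhx2 fell and Sox3 rose. These are 1 higher and 2 lower of the 31 tested (9.68%), against 7.17% of all 16708 genes tested (3.01% higher and 4.16% lower), so the share among the factors was near the background. In male CKO cells Irx5 fell and no factor rose, 3.23% of the 31 against 1.7% of all genes (1.2% higher and 0.497% lower). The median log2 fold change of the 31 was -0.13 in females and -0.25 in males, against 0.0 and -0.02 over all genes. With groups at 0 counts set to their floor, the male median was -0.4. In bulk cells, fewer expressing cells and less RNA per cell cannot be told apart.

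Irx5, an Iroquois homeobox factor with roles in the nervous system, heart and gonad, was the factor called in both sexes. It read 3.59, 2.25 and 3.46 CPM in the 3 female Ctrl libraries and 0.615 and 0.602 in female CKO. The male values were 0.526, 0.33, 0.364 and 0.0757 CPM in Ctrl and 0.0338, 0.0347 and 0.0 in CKO. CKO and Ctrl did not overlap in either sex, and the male CKO level rests on 2 counts against 39 in male Ctrl. The log2 fold change was -2.34 ± 0.59 (SE) in females (adjusted p = 0.0332, edgeR) and -3.63 ± 0.79 in males (adjusted p = 0.0376). As a ratio of counts the male level was 14.8-fold lower, with a 95% counting interval of 3.84 to 127. Leaving out any 1 of the 5 female libraries ended the female call, at adjusted p from 0.0568 (without female Ctrl 2) to 0.176 (without female CKO 2). The male call held only without male Ctrl 2 or male Ctrl 4, and adjusted p lay between 0.0531 and 0.149 without any other library. In limma-voom the male adjusted p was 0.0586. In a fit of the male libraries alone Irx5 did not pass the count filter and was not tested. It entered the male test through its higher female counts. Averaged over the sexes, the log2 fold change of Irx5 was -2.98 ± 0.49 (adjusted p = 0.00226), and this call was kept without each library in turn.

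Lhx2, a LIM homeobox factor of the forebrain, eye and limb, was the second to fall. Its levels were 14.0, 12.7 and 15.1 CPM in female Ctrl and 6.41 and 4.99 in female CKO. In males they were 1.17, 1.28, 1.72 and 1.51 CPM in Ctrl and 0.338, 0.936 and 0.86 in CKO. Each CKO library lay below each Ctrl library of its sex. The log2 fold change was -1.29 ± 0.34 in females (adjusted p = 0.0393) and -0.99 ± 0.32 in males (adjusted p = 0.133). The mean of both was -1.14 ± 0.23 (adjusted p = 0.00695), kept without each library in turn. Leaving out any 1 female library or male Ctrl 3 ended the female call (adjusted p between 0.0514 and 0.239), as did scaling by library totals alone (adjusted p = 0.0591).

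Sox3, a SoxB1 factor of neural progenitors that lies on chromosome X and is also known in male germ cells, was the factor that rose in females. It read 2.67, 3.19 and 3.12 CPM in female Ctrl and 7.64 and 7.04 in female CKO, which do not overlap. In males it read 7.68, 4.37, 5.06 and 4.05 CPM in Ctrl and 6.6, 4.44 and 5.99 in CKO, which do. Both female CKO libraries thus lay above every male library except male Ctrl 1. The log2 fold change of Sox3 was 1.29 ± 0.3 in females (adjusted p = 0.0234) and 0.1 ± 0.25 in males (adjusted p = 0.895). The difference between these effects was 1.19 ± 0.39, which did not pass the test over all genes (adjusted p = 0.493). Leaving out any 1 female library ended the female call, at adjusted p from 0.0581 to 0.113.

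The difference between the female and male effects of the deletion was called for 0 of the 31 factors and for 0.0% of all genes in edgeR. At an unadjusted p under 0.05 there were 1401 genes, of which 1 was a factor of the set, Sox3. DESeq2 called 61 genes and limma-voom 0, with none of the factors among them. No factor was therefore shown to respond differently in the sexes.

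Over both sexes together, 6 of the 31 factors changed (19.4%), against 14.7% of all genes (6.85% higher and 7.87% lower). Isl1 and Sox3 rose and Irx5, Lhx2, Otx1 and Nkx6-2 fell. The median of the 31 was -0.34 on the log2 scale, against -0.01 over all genes. These 6 are not independent of the calls by sex, since the same 12 libraries enter.

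Otx1, a homeobox factor of the forebrain and midbrain, read 0.983, 0.344 and 1.92 CPM in female Ctrl against 0.117 and 0.0602 in female CKO. Male libraries read 2.48, 0.289, 1.59 and 0.492 CPM in Ctrl against 0.305, 0.347 and 0.344 in CKO. The female groups did not overlap and the male groups did, through male Ctrl 2. Its mean log2 fold change was -2.71 ± 0.64 (adjusted p = 0.0139), with -3.54 ± 1.04 in females (adjusted p = 0.0565) and -1.87 ± 0.74 in males (adjusted p = 0.218). The mean call was lost without female CKO 1 (adjusted p = 0.0538), without female CKO 2 (0.0743) and in limma-voom (0.0563).

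Nkx6-2, a homeobox factor of the ventral neural tube and oligodendrocytes, read 5.68, 3.47 and 4.36 CPM in female Ctrl and 3.42 and 3.34 in female CKO. In males it read 1.49, 2.52, 2.91 and 1.4 CPM in Ctrl and 0.981, 0.936 and 0.55 in CKO. CKO lay below Ctrl in both sexes, by a narrow margin in females. The mean log2 fold change was -0.87 ± 0.27 (adjusted p = 0.0432), a call that held in 2 of the 12 fits without 1 library (without male Ctrl 1 or male Ctrl 4), and reached an adjusted p of 0.133 without female CKO 2. It was also lost with scaling by library totals alone (0.0608) and with no filter on low counts (0.0616). Reads of Inpp5a, which has exons on the opposite strand over Nkx6-2 and 9775 counts in all, cannot be told apart from it in a library that does not mark strand.

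Isl1, a LIM homeobox factor of motor neurons, sensory neurons and heart progenitors, read 0.921, 0.375 and 1.34 CPM in female Ctrl and 2.99 and 1.96 in female CKO. In males it read 0.175, 0.33, 0.165 and 0.871 CPM in Ctrl and 0.812, 1.28 and 1.86 in CKO. The female groups did not overlap, and in males the highest Ctrl library exceeded the lowest CKO library. Its log2 fold change was 1.49 ± 0.65 in females (adjusted p = 0.184), 1.79 ± 0.59 in males (adjusted p = 0.143) and 1.64 ± 0.44 on average (adjusted p = 0.0249). In limma-voom it passed the threshold in females (0.0284) and in males (0.0403). The average lost its call without female CKO 1 (adjusted p = 0.0957), female Ctrl 2 (0.0529), male CKO 2 (0.0505) or male CKO 3 (0.0684). The mean call of Sox3 (0.7 ± 0.2, adjusted p = 0.0314) was kept in 4 of 12 such fits, with adjusted p up to 0.0995 (without female CKO 1).

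**Figure D2:**
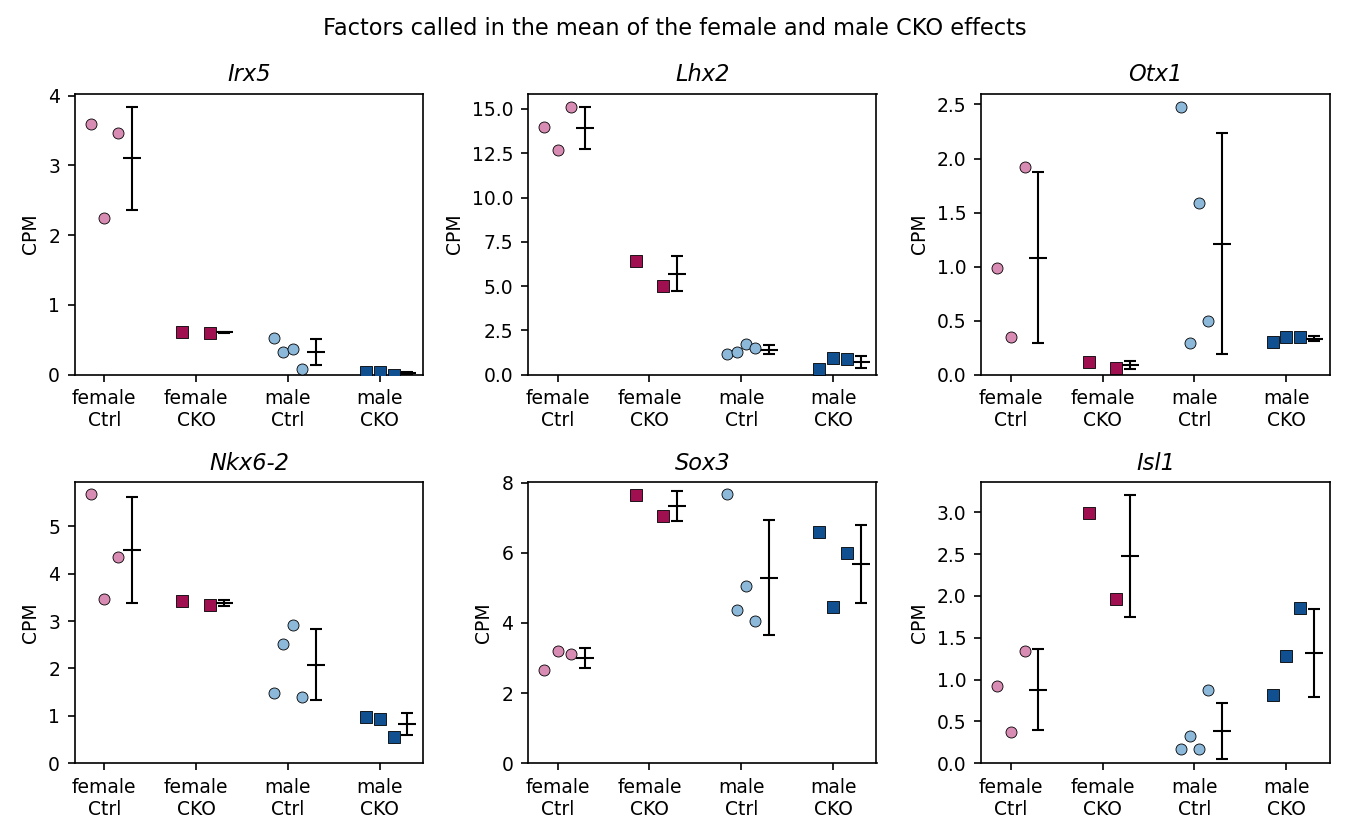
CPM of the 6 factors called in the mean of both CKO effects, with 1 point per library by group (circles Ctrl, squares CKO) and mean ± SD beside them, on linear axes from 0. Irx5, Lhx2, Otx1 and Nkx6-2 have lower means in CKO of each sex and Isl1 a higher one (Otx1 and Isl1 with overlap in males), while Sox3 is higher in female CKO (7.04 and 7.64 CPM) than in female Ctrl and overlaps between the male groups.

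**Figure D3:**
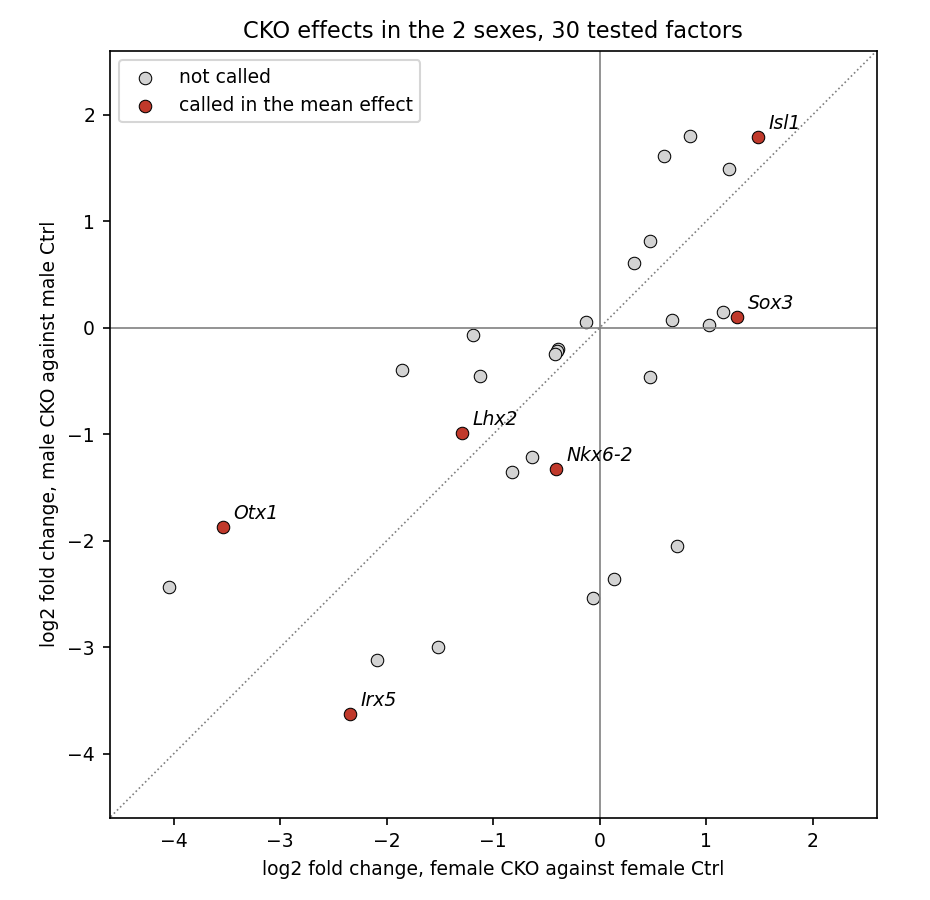
Log2 fold change, CKO against Ctrl, in females (horizontal) and males (vertical) for the tested factors that have a count in males, with the factors called in the mean effect in red and equal effects on the dotted line. Dlx6, with no count in males, is left out, and the points of factors with groups at or near 0 counts (Nkx2-2, Dlx1, Dlx4, Gbx1) depend on the fit. Isl1 lies in the upper right and Irx5, Otx1, Lhx2 and Nkx6-2 in the lower left.

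Gbx2 and Pou4f1, the factors with the highest CPM averaged over all 12 libraries (within single groups Lhx2, En2, Irx3 or Olig1 exceeded Pou4f1), were not called in CKO cells. Gbx2 read 45.1, 36.3 and 31.1 CPM in female Ctrl and 34.8 and 33.8 in female CKO, a log2 fold change of -0.13 ± 0.38 (adjusted p = 0.877). Its male levels were 3.42, 12.7, 7.05 and 5.15 CPM in Ctrl and 7.51, 8.46 and 5.99 in CKO (0.05 ± 0.33, adjusted p = 0.959). Pou4f1, a POU factor of sensory neurons, read 8.48, 9.57 and 8.37 CPM in female Ctrl and 16.0 and 12.2 in female CKO. These did not overlap, with a log2 fold change of 0.68 ± 0.24 that missed the threshold in edgeR (adjusted p = 0.101) and passed it in DESeq2 (0.0276) and limma-voom (0.0466). In males Pou4f1 ranged from 4.5 to 7.18 CPM over both groups.

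En2 of the midbrain and hindbrain, Olig3 of the dorsal neural tube and Phox2a of autonomic neurons missed the threshold in both sexes. The log2 fold change of En2 was -0.39 ± 0.59 in females and -0.2 ± 0.53 in males, that of Olig3 0.32 ± 0.42 and 0.61 ± 0.36, and that of Phox2a 0.47 ± 0.39 and -0.46 ± 0.35. Adjusted p was at least 0.427 in each case. Exons of Inppl1 lie over Phox2a on the opposite strand, with 19358 counts in all. By family, the calls of the mean effect fell in the LIM homeobox group (1 higher and 1 lower of 4 tested), the SoxB and SoxE group (1 higher of 3), the brain patterning homeobox group (1 lower of 7), the Nkx group (1 lower of 2) and the Iroquois group (1 lower of 2). No tested member of the Dlx (4), proneural and related bHLH (4), Phox and POU (2), paired box (1) or AP-2 (1) groups was called, nor was Six6.

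Nkx2-2, a factor of the ventral neural tube, missed the threshold although its counts differed. It read 0.701, 0.701, 1.06 and 0.568 CPM in male Ctrl and 0.0, 0.0347 and 0.378 in male CKO. In females it had 6 counts over the 3 Ctrl libraries and 0 in CKO. The mean effect had an adjusted p of 0.0698 in edgeR, 0.0387 in DESeq2 and 0.0156 in limma-voom. Dlx1 of the ventral forebrain was alike, with 0.263, 1.2, 0.43 and 0.265 CPM in male Ctrl against 0.0, 0.173 and 0.0 in male CKO. Its mean effect had an adjusted p of 0.0684 in edgeR, 0.0435 in DESeq2 and 0.038 in limma-voom.

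Markers of other cells differed between some libraries, and their part in these results was not tested. Summed over 8 markers of gonadal somatic progenitors, a list that holds the factor Emx2, female Ctrl libraries read 3.67 to 4.72 CPM, female CKO 5.42 and 13.4, male Ctrl 4.62 to 12.6 and male CKO 6.07 to 13.9, with none of the 8 at 0. Endothelial markers (6) read 8.65 to 10.7 CPM in female Ctrl, 13.2 to 14.6 in female CKO, 9.29 to 17.1 in male Ctrl and 15 to 19.2 in male CKO, with Emcn at 0 in male Ctrl. Red blood cell markers (7) reached 16.1 CPM in female CKO 1 and 17.9 in male CKO 1 and at most 2.03 in any other library. Pregranulosa markers (6, with the factor Irx3 among them) read 15.8 to 28.4 CPM in female Ctrl, 18.5 to 21.1 in female CKO and 4.33 to 5.47 in male CKO. In male Ctrl they read 5.45 to 9.77 CPM in male Ctrl 2, 3 and 4, and more than that in male Ctrl 1 but less than in any female library. Foxl2 was at 0 in male CKO. In females both CKO libraries exceeded each Ctrl library in the progenitor and endothelial sums, as they did for Isl1 and Sox3. Single progenitor markers did not all rise. Pdgfra read 2.02 and 4.24 CPM in female CKO and 0.813 to 1.11 in female Ctrl. Gata4 read 0.878 and 0.632 CPM against 0.72 to 2.03. Most of the endothelial sum in females came from Egfl7 (9.37 and 7.73 CPM in CKO, 5.66 to 6.85 in Ctrl). In males Egfl7 was called higher in CKO (adjusted p = 0.0422, edgeR). Cdh5 read 0.205 and 0.782 CPM in female CKO and 0.0343 to 0.154 in female Ctrl. It read 0.894 to 2.12 CPM in male CKO and 0.416 to 0.596 in male Ctrl. In the mean effect Egfl7 (adjusted p = 0.0128) and Cdh5 (0.00985) were called higher, and Tek and Kdr were not called. Between the female CKO libraries, the progenitor sum was higher in CKO 2, and the endothelial sum, Isl1 and Sox3 were higher in CKO 1.

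Between the sexes the factors differed more than between genotypes. Among controls, 13 of the 31 tested factors were higher in females and 4 in males (54.8% together), against 39.5% of all genes (20.1% higher and 19.4% lower in females). The median log2 difference, female minus male, was 1.46 over the 31 and 0.0 over all genes. With no filter on low counts it was 1.11 over 51 factors.

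Lhx2, at 12.7 to 15.1 CPM in female Ctrl and 1.17 to 1.72 in male Ctrl, differed by 3.29 ± 0.29 on the log2 scale (adjusted p = 2.98e-06), and Gbx2 by 2.41 ± 0.33 (7.92e-05). Irx3, an Iroquois factor also used as a marker of pregranulosa cells, read 12.9, 7.01 and 7.75 CPM in female Ctrl and 0.0292, 1.2, 0.926 and 0.681 in male Ctrl (3.73 ± 0.58, adjusted p = 0.000243). En2 read 15.9, 7.26 and 7.86 CPM against 0.73, 2.68, 1.36 and 1.78 (2.67 ± 0.51, adjusted p = 0.00108). Irx5 differed by 3.22 ± 0.49 (adjusted p = 0.000189) and Gbx1, the paralog of Gbx2, by 3.73 ± 0.86 (0.00377). None of these 6 overlapped between female and male controls. They were called on these same libraries, and the share of all genes without overlap is not given here. The remaining higher factors were Dlx2, Dlx4 and Dlx6, and Olig3 (1.37 ± 0.36), Nkx6-2 (1.11 ± 0.33), Tfap2a of neural crest (2.56 ± 0.76) and Emx1 of the dorsal forebrain (1.53 ± 0.56), the last 4 with adjusted p between 0.00807 and 0.0423.

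On the male side stood Neurog3, Nkx2-2, Sox3 and Sox10. Neurog3, the proneural factor of endocrine pancreas that is also known in spermatogonia, read 1.4, 0.949, 0.629 and 2.46 CPM in male Ctrl and 0.0921, 0.0625 and 0.206 in female Ctrl, a female minus male difference of -3.47 ± 0.67 (adjusted p = 0.00114). It was also present in all 3 male CKO libraries, at 1.62, 0.52 and 1.34 CPM. Fam241b, with 5263 counts, has exons over Neurog3 on the opposite strand. Nkx2-2 differed by -3.49 ± 0.96 (adjusted p = 0.0118), Sox10 of neural crest and glia by -1.93 ± 0.64 (0.0277) and Sox3 by -0.82 ± 0.26 (0.0227). All 4, called on these same libraries, were lower in each female Ctrl library than in each male Ctrl library.

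Without 1 library at a time, 12 of the 17 calls were kept in every fit. The call of Nkx6-2 was lost without female Ctrl 1 (adjusted p = 0.0785), as was that of Tfap2a (0.0902). Sox10 lost it without female Ctrl 1 (0.0611), female Ctrl 2 (0.104) or male Ctrl 1 (0.075), and Sox3 without female Ctrl 1 (0.086), female Ctrl 3 (0.0537) or male Ctrl 1 (0.0612). Emx1 lost it without female CKO 1, female Ctrl 1, female Ctrl 2, male CKO 2, male Ctrl 1, male Ctrl 2 or male Ctrl 3, with adjusted p from 0.0514 to 0.116, and also in DESeq2 (0.0538) and with no filter on low counts (0.0815).

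**Figure D4:**
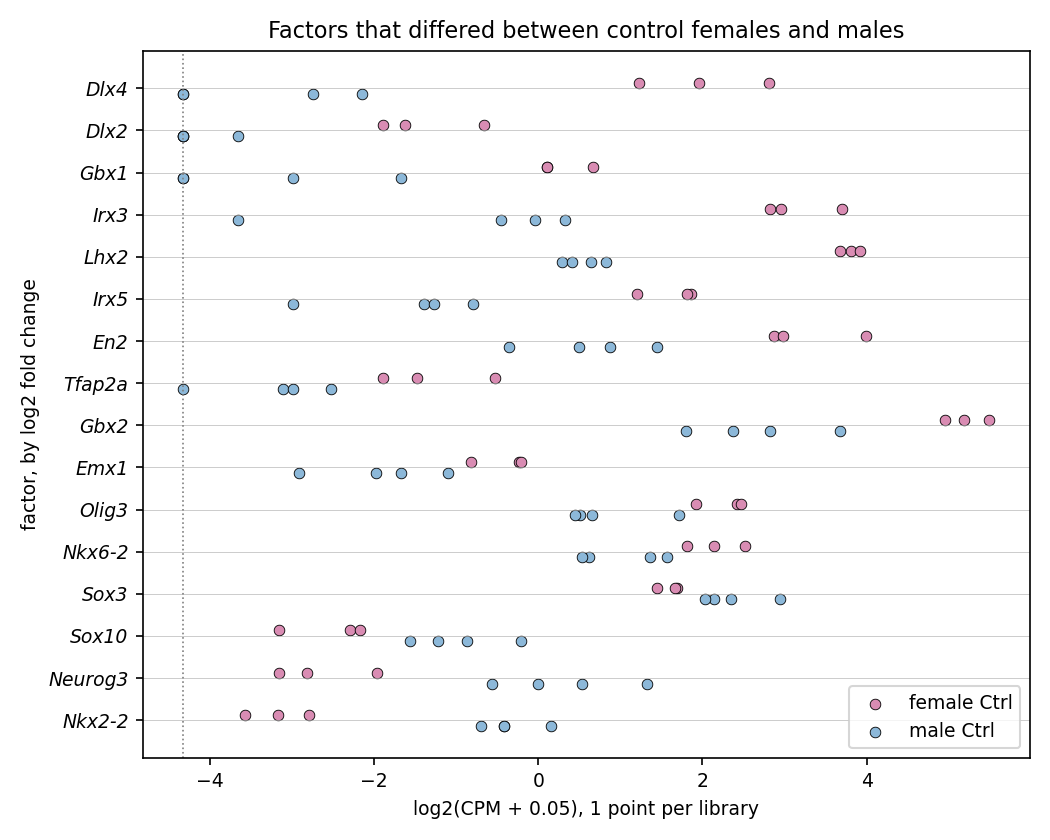
Level as log2(CPM + 0.05) in each control library for 16 of the 17 factors that differed between control females and males, ordered by the log2 difference, with the dotted line at 0 CPM. Dlx6, at 0 in all male libraries, is left out. The female and male points of each factor do not overlap. The factors were called on these same libraries, so this separation follows in part from how they were chosen.

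The sexes also differed in markers of other cells, whose part in these differences was not tested. The pregranulosa sum was higher in each female Ctrl library than in each male Ctrl library, but it includes Irx3. Without Irx3 the other 5 markers read 8.75 to 15.5 CPM in female Ctrl and 4.25, 6.29 and 9.09 in male Ctrl 2, 3 and 4, and male Ctrl 1 lay within the female range, so the groups overlapped. Among these 5, Wnt4 (1.75 to 4.15 against 0.189 to 0.908 CPM) and Bmp2 (2.64 to 3.84 against 0.114 to 0.827) were higher in each female Ctrl library. Foxl2 was also called higher in female Ctrl (adjusted p = 0.0293, edgeR), with overlap. Rspo1 (2.13 to 4.64 against 1.03 to 9.37 CPM) and Fst (0.719 to 1.72 against 1.49 to 3.21) overlapped and were not called. Mesonephric epithelium markers (6, Cdh16 at 0 in both) read 28.3 to 41.1 CPM in female Ctrl. They read 108, 117 and 112 CPM in male Ctrl 1, 3 and 4 and slightly less in male Ctrl 2. Nearly all of the male sum was Lhx1 (93.4 to 113 CPM, against 8.38 to 22.1 in female Ctrl), while Wfdc2 was higher in female Ctrl (17.8 to 19.6 against 1.75 to 5.07 CPM, adjusted p = 9.52e-06). Markers of neural crest and autonomic neurons (8, Sox10 among them) read 36.0 to 46.4 CPM in female Ctrl and 116 to 161 in male Ctrl. Most of that sum came from Erbb3 (22.0 to 27.6 against 87.2 to 108 CPM), while Dbh was at 0 in female Ctrl. Sertoli cell markers (6, Amh at 0 in female Ctrl) read 12.1 to 14.2 CPM in female Ctrl and 15.4 to 41.2 in male Ctrl. Most of the female sum was Aard (10.6 to 13.6 CPM, against 7.87 to 19.9 in male Ctrl), whereas Sox9 read 0.0 to 0.24 CPM in female Ctrl and 2.23 to 6.04 in male Ctrl and Amh 1.02 to 5.34 in male Ctrl.

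Several of the factors lie side by side in the genome, and neighbours did not always move together. On chromosome 8, Irx3 and Irx5 were both higher in female than in male controls. Irx5 fell in CKO cells of both sexes, while Irx3 read 5.65 and 6.2 CPM in female CKO (log2 fold change -0.64 ± 0.64, adjusted p = 0.591) and 0.338, 0.243 and 0.31 in male CKO (-1.21 ± 0.68, adjusted p = 0.395). Without male Ctrl 1, the control with the lowest Irx3 level, the mean effect on Irx3 went from an adjusted p of 0.208 to 0.00955. Irx6, the third gene there, had 8 counts in all. Irx2 on chromosome 13 had 24 counts in female Ctrl and 1 in male Ctrl, a ratio of 29.4 with a counting interval of 4.8 to 1210, and its neighbour Irx1 had 3 counts in each of these groups.

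The Dlx genes, homeobox factors of the ventral forebrain and branchial arches, differed by member. Dlx2, Dlx4 and Dlx6 were called higher in female than in male Ctrl, Dlx1 was not called and Dlx5 was too low to test. Dlx6 read 0.706, 0.219 and 0.309 CPM in female Ctrl and 0.468 and 0.391 in female CKO, and was at 0 in all 7 male libraries, at least 15.8-fold higher in female than in male Ctrl. Its neighbour Dlx5 on chromosome 6 read 0.43, 0.0625 and 0.103 CPM in female Ctrl and 0 in male Ctrl, at least 7.6-fold higher, although most of its female counts came from female Ctrl 1 and male CKO had 4 counts. Dlx2 on chromosome 2 had 33 counts in female Ctrl and 1 in male Ctrl, a ratio of 40.5 with a counting interval of 6.77 to 1650. Its neighbour Dlx1 ran the other way in its means, 0.14 ± 0.0275 CPM in female Ctrl and 0.539 ± 0.446 in male Ctrl (log2 difference -1.9 ± 0.94, adjusted p = 0.127). Dlx4 on chromosome 11 read 6.97, 3.85 and 2.3 CPM in female Ctrl and 0.175, 0.0, 0.0993 and 0.0 in male Ctrl (5.78 ± 0.73, adjusted p = 4.65e-05). Antisense genes named Dlx1as (218 counts) and Dlx4os (429 counts) overlap Dlx1 and Dlx4, and their reads cannot be told apart without strand.

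Olig1, a bHLH factor of oligodendrocyte precursors, varied more between embryos of a group than between groups. It read 5.84, 0.907 and 4.36 CPM in female Ctrl and 4.71 and 0.812 in female CKO. In males it read 0.876, 10.7, 15.4 and 0.53 CPM in Ctrl and 0.0338, 17.2 and 0.0688 in CKO. Levels above 10 CPM were found in male Ctrl 2, male Ctrl 3 and male CKO 2, so high and low libraries occur under both genotypes. Its neighbour Olig2 on chromosome 16, which specifies motor neurons and oligodendrocytes, had counts in those same 3 libraries, at 0.248, 0.265 and 0.347 CPM, and 0 in the other 9. The log2 fold change of Olig1 had an SE of 2.02 in females and 1.65 in males, so a change of moderate size could not be detected. Fitted without 1 library at a time, the male log2 fold change ran from -6.96 to 0.52.

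**Figure D5:**
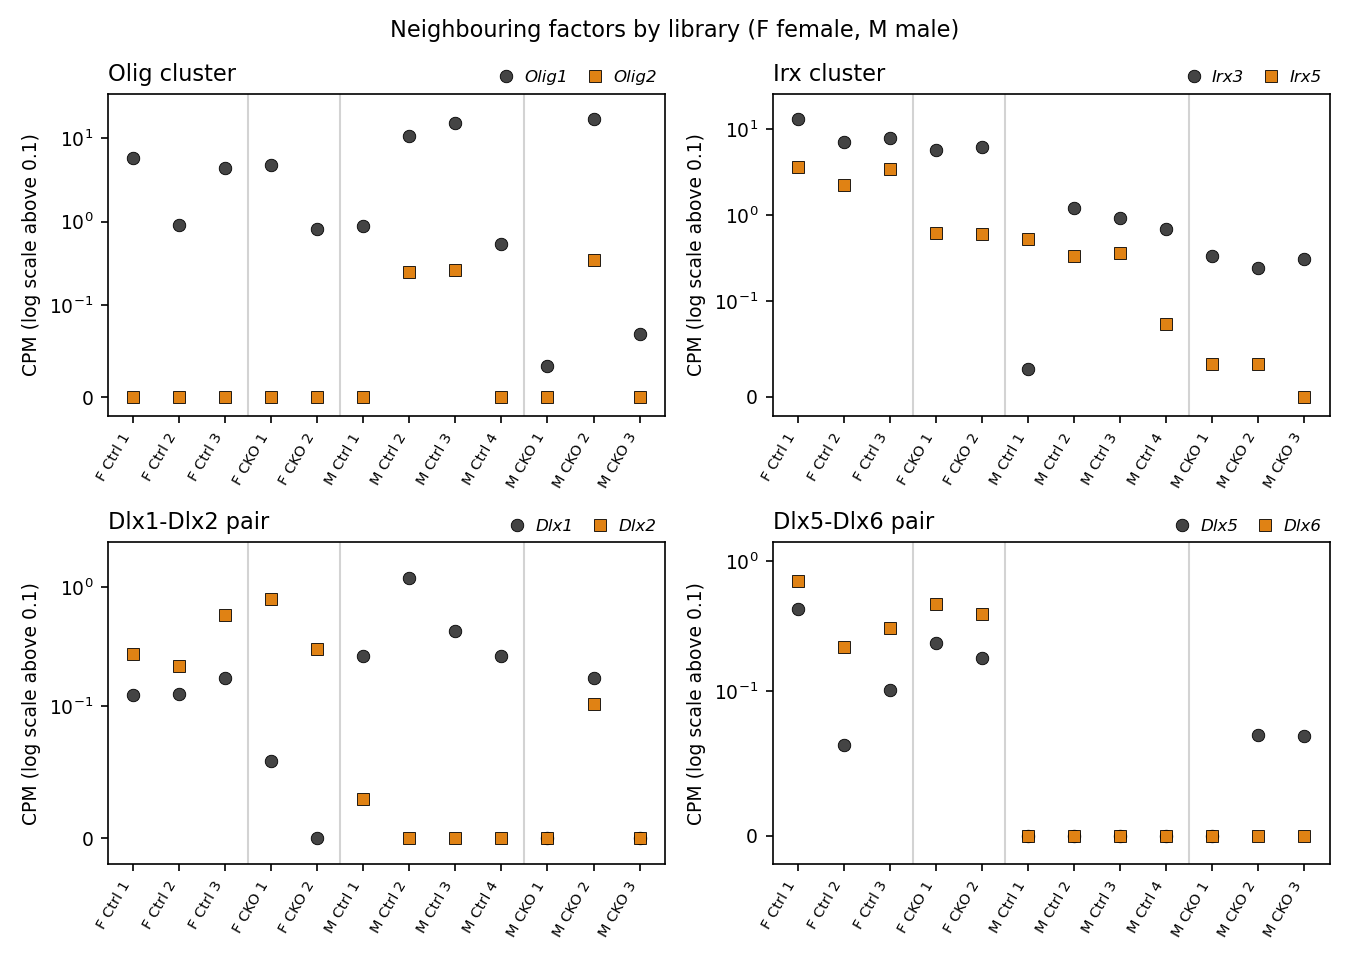
CPM in each library for neighbouring factors, on an axis that is linear up to 0.1 and logarithmic above, with grey lines between the groups. Olig2 is above 0 only in the 3 libraries with the highest Olig1, Irx5 is lower in CKO than in Ctrl of each sex, and Dlx6 is at 0 in every male library.

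Lists of related genes were set beside the factors. Among 42 further genes of the same families, 25 were tested. In female CKO 0 rose and 6 fell (24% of the 25, against 7.17% of all genes). In male CKO 0 rose and 1 fell (4% against 1.7% of all genes). Over both sexes 1 rose and 7 fell (32%), against 14.7% of all genes (6.85% higher and 7.87% lower). The falling genes included the eye and forebrain factor Pax6, at 17.8 ± 5.18 CPM in female Ctrl and 0.179 ± 0.129 in female CKO (log2 fold change -6.6) and 14.3 ± 4.46 in male Ctrl and 0.55 ± 0.184 in male CKO (-4.69). Zic5 (mean log2 fold change -1.62 ± 0.34, adjusted p = 0.00776), Six2 (-2.46 ± 0.45, 0.00372) and Six4 (-0.53 ± 0.12, 0.0098) fell as well. Lhx1 was also called lower in the mean effect, and Pax8 higher. Zic5, Six2, Six4 and Lhx1 were called in females (adjusted p = 0.017, 0.0407, 0.0218 and 0.0441, edgeR). None of these 4 was called in males (0.352, 0.0578, 0.379 and 0.849). Lhx1 read 88.7 to 101 CPM in male CKO and 93.4 to 113 in male Ctrl.

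Genes that carry out neuronal and glial functions numbered 26 in the list and 18 tested. Called were 5.56% of these in female CKO and 16.7% over both sexes, near the 7.17% and 14.7% of all genes. Ncam1, a neural cell adhesion molecule, rose in female CKO (1.45 ± 0.41, adjusted p = 0.0483), and no gene of the list was called in males. That call held in 3 of 12 fits without 1 library (without female Ctrl 1, male Ctrl 1 or male Ctrl 2), with adjusted p up to 0.196. Over both sexes Ncam1 (0.92 ± 0.27, adjusted p = 0.0369) rose and Ina, a neuronal intermediate filament (-0.64 ± 0.15, 0.0146), fell. Ncam1 held its mean call in 4 of 12 such fits (without female Ctrl 1, male CKO 3, male Ctrl 1 or male Ctrl 2), with adjusted p up to 0.111, and Ina lost its call without female CKO 1 or female CKO 2 (up to 0.0604).

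Of 17 tested genes of the Notch and proneural pathway, Rest, a repressor of neuronal genes, fell in female CKO (-0.74 ± 0.19, adjusted p = 0.034), 5.88% of the list against 7.17% of all genes. Without female CKO 1, female Ctrl 2, female Ctrl 3 or male CKO 3 this was no longer called (adjusted p up to 0.264), nor was it with scaling by library totals alone (0.0591). Over both sexes Rest (-0.62 ± 0.12, 0.00584) and Insm1 (-1.02 ± 0.23, 0.0109) fell and Jag1 (0.69 ± 0.19, 0.0309) and Id3 (0.41 ± 0.13, 0.0475) rose, 23.5% of the list against 14.7% of all genes. Rest kept its mean call without each library in turn, and Insm1 lost its own without female CKO 2 (adjusted p = 0.0584). Id3 held its mean call in 2 of 12 fits (without male Ctrl 1 or male Ctrl 2), with adjusted p up to 0.127, and lost it with no filter on low counts (0.0625). Jag1 lost it without female CKO 1, female Ctrl 2, female Ctrl 3, male CKO 1, male CKO 3 or male Ctrl 3, with adjusted p up to 0.15. Of 12 PRC2 subunits, Ezh2, Jarid2 (-0.69 ± 0.14, adjusted p = 0.012) and Suz12 (-0.72 ± 0.15, 0.0132) fell in female CKO, 25% of the list against 7.17% of all genes, and 0 were called in male CKO. The female calls were lost without female CKO 1 (adjusted p = 0.165 for Ezh2, 0.076 for Jarid2 and 0.114 for Suz12), that of Jarid2 also without female CKO 2 and those of Ezh2 and Suz12 also without female Ctrl 3. The mean effect on these 3 was called without each library in turn.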

How the data were processed

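RNA was sequenced from germ cells of 12 E13.5 embryos, and the authors deposited their unnormalized read counts in 1 table, with a row for each gene. Per the labels' protocols, cDNA was amplified from sorted cells with a SMART-seq kit, which does not mark the strand. The upstream tools, per the submitters' processing notes, were featureCounts, TopHat2 2.0.11, Trimmomatic 0.33 and CASAVA 1.8.4, with the builds mm9 and NCBIM37. The treatment of reads with several matches is not given in the sources used here. Of 37991 identifiers, 32919 matched a symbol in GENCODE M21 (99.5% of counts). That annotation, on GRCm38, also gave lengths and overlapping exons, and RefSeq gave promoters, so no coordinates of the counts are printed.

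Counts were tested in edgeR 4.0.16 (limma 3.58.1, R 4.3.3) with a quasi-likelihood model, TMM scaling and 1 coefficient per group over all 12 libraries (8 residual degrees of freedom). Genes passed filterByExpr (minimum count 10, minimum total 15), which left 16708. Benjamini-Hochberg adjustment ran over all of these, with calls made below 0.05. CPM values used TMM-scaled totals. The CKO effect in each sex was tested, then the difference and the mean of both effects, and the sex difference among Ctrl. Replicates of a group differed by a chi-square per gene of 18.6 to 74.2, so none was counted as a duplicate. In simulated counts for 16708 genes, the female contrast recovered 36.8% of 95 genes changed 2-fold and 68.1% of 94 changed 4-fold, and the male contrast 49% of 96 and 70.1% of 97. The changed genes were drawn from all tested genes, so these shares do not describe the factors, many of which had few counts. Alternatives were other scalings and filters, only the groups compared, a replicate block, DESeq2 1.42.0, limma-voom and leaving out each library.

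The factors, lists and tests were chosen with earlier results of these data known. Named genes are all factors called in any contrast, the 12 with the highest mean CPM, those in gene clusters with at least 10 counts in a library, up to 4 called genes per other list and CKO contrast, and Ezh2. Genes named outside this rule, such as Lhx1, Pax8 and the markers, were named after their values were seen. Some genes it would name are not reported here.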

Additional observations from a re-analysis of the deposited data

Results flagged for a closer look

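Only the factors named by rule were examined. Among the 24 of them with any spread in the 4 male Ctrl libraries, 3 had 1 library apart from the other 3 by more than Dixon's 95% limit for 4 samples allows. For normally distributed values chance flags about 1 in 20 groups. A group with counts in 1 library and 0 in the others is always flagged. Olig3 read 3.24 CPM in male Ctrl 3 and 1.32 to 1.53 in the others. Dlx2 read 0.0292 CPM in male Ctrl 1 and 0.0 in the others. Irx2 read 0.0331 CPM in male Ctrl 3 and 0.0 in the others. The last pair are 1 count each with 0 in the other male Ctrl libraries, so their flags were fixed in advance.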

How the results depend on the processing

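Of the 31 tested factors, 3 were called in females, and 5 were called by DESeq2 and 5 by limma-voom. In males 1 was called (Irx5), against 3 in DESeq2 and 3 in limma-voom. With only the groups compared 0 were called, but Irx5 did not pass the count filter there and was not tested. Leaving out 1 library at a time gave 0 to 4 called factors in females, 0 to 1 in males, 0 for the difference of effects, 2 to 7 for the mean effect and 12 to 19 between control sexes. Counts over all genes moved too, from 317 to 1730 in females (1198 with all libraries) and from 36 to 502 in males (284). DESeq2 and limma-voom called 1989 and 2068 genes in females and 990 and 1122 in males, the fit of only the groups compared called 63 in males, and DESeq2 called 61 for the difference of effects, where edgeR called 0. With 2 libraries in female CKO, each fit without 1 of them assumes that the lone library varies like the other groups. The female count was 0 without any 1 of the 5 female libraries. The mean effect had 2 called factors without female CKO 1, 3 without female CKO 2 and 3 without female Ctrl 2. No direction of a called factor reversed. The cause of these changes was not tested. No fit of the difference or the mean effect was made with only the groups compared, since these need all 4 groups.

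The replicate numbers in the titles showed no sign of pairing the samples. Deviations of libraries with the same title number correlated with a median of 0.00648 over 15 pairs (-0.0953 to 0.152), against -0.00126 for different numbers. The headers of the count columns number the female libraries differently, and neither this check nor the replicate block used those numbers. With the replicate block, 2 factors were called in females, 1 in males, 0 for the difference of effects, 4 for the mean effect and 17 between control sexes, and 1054, 105, 0, 2311 and 6142 of all genes. The block ended the calls of Lhx2 in females (adjusted p = 0.0789), of Nkx6-2 (0.0566) and Sox3 (0.057) in the mean effect, and of Nkx6-2 (0.0672) and Tfap2a (0.0604) between control sexes, where it added Isl1 (0.0266) and Phox2a (0.0168). Among other named genes it ended those of Ncam1 in females (0.0651) and of Ncam1 (0.0671), Id3 and Jag1 (0.0523) in the mean effect.

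Depth limits the factors below the count filter most: at 24.2 to 34.2 counts per CPM, a change in a gene of a few counts was not detectable.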

Other observations

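The control sexes also differed in genes around the factors. Of 17 tested genes of the Notch and proneural pathway, 8 were higher in female Ctrl (Id1, Id2, Id3, Id4, Jag2, Insm1, Hes5 and Notch1) and 3 in male Ctrl (Dll3, Hes1 and Hey1). Id3, an inhibitor of bHLH factors, read 232 ± 7.56 CPM in female Ctrl and 70.8 ± 21.1 in male Ctrl. Of 18 tested neuronal and glial genes, 6 were higher in female Ctrl (Map2, Mbp, Rbfox3, Nefm and Syp among them) and Tubb3 was higher in male Ctrl. These names were given after their values were seen, and 39.5% of all genes differed.

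Pou4f2, a POU factor of retinal ganglion cells that was singled out after its values were seen, was highest in the same 3 libraries as Olig1 and Olig2. It read 1.32 CPM in male Ctrl 2, 1.12 in male Ctrl 3 and 0.451 in male CKO 2, and at most 0.274 in the other 9.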
